A study of Arabidopsis thaliana with 24 samples.

Results

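The transcripts examined here are those whose response to the synthetic auxin picloram differed between 2 h and 30 min of treatment in wild-type Arabidopsis hypocotyls, the stem of the seedling. For every one of 30361 transcripts in microarray experiment “a”, the difference between picloram and control at 2 h was compared with the same difference at 30 min. All 12 samples of experiment “a” entered, of 24 in the series, and no measured value was used to choose them. Col-0 seedlings aged 5 d, grown in 16 h of light and 8 h of dark, were moved 2 h after lights on to medium with 5 µM picloram or with the solvent DMSO, and were sampled after 30 min or 2 h, with 3 replicates in each of the 4 groups. Each replicate pooled roughly 400 dissected hypocotyls collected over several days, so that a value is an average over many plants and over all cell types of the hypocotyl. Every control sample carried the dye Cy5 and every picloram sample Cy3. A dye bias that is the same at both times cancels in the comparison of the responses. Within a single time, dye and treatment cannot be told apart. A dye bias that depends on intensity or differs between the times was not tested.

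Auxin acts by joining a TIR1/AFB receptor to an Aux/IAA repressor, which is then degraded, so that ARF transcription factors can act on their targets. Picloram is perceived chiefly by the receptor AFB5. Early targets include the *SAUR* genes, whose small proteins promote cell expansion, and the *Aux/IAA* genes themselves. They also include *GH3* genes, a family of which some members encode enzymes that join auxin to amino acids and so lower its active level. Later targets act in auxin transport, in the pathways of other hormones and in the cell wall. Hypocotyls grow by expansion of existing cells, and auxin is a main promoter of this growth in the light.

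Values are given as log2 of the hybridization intensity after quantile normalization, so that a difference of 1 is a doubling of intensity. They are compared between samples for a given transcript, except where a level is placed among all transcripts of the chip. Such a placement is only a rough description. The difference of the 2 responses, picloram minus control at 2 h less picloram minus control at 30 min, is called the time difference below, and a transcript is called when the adjusted p of this difference was under 0.05 in limma. Before normalization the median intensity of the arrays lay between 868.8 and 1497, and 6 to 41 transcripts per array exceeded an intensity of 60000, near the scanner ceiling. No single gene marks the hypocotyl as a whole. Of 21 light-harvesting genes, markers of green tissue such as cotyledons, 19 lay above the median level of the chip, and of 7 xylem genes 6 did. Among 8 root hair genes and 8 shoot apex genes, 1 of each did.

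More transcripts differed between picloram and control at 2 h than at 30 min. At 30 min, 63 transcripts (0.208%) differed between picloram and control, 47 higher and 16 lower. At 2 h, 1678 (5.53%) were higher with picloram and 1772 (5.84%) were lower. The time difference itself was called for 257 transcripts (0.846%), of which 126 (0.415%) were higher at 2 h and 131 (0.431%) lower. In bulk tissue, fewer cells of a type and less RNA per cell cannot be told apart in any of these differences. The last transcript called had an adjusted p of 0.04997 and the first not called 0.05054. Without adjustment, p lay under 0.05 for 4969. The time difference was above 0 in 14965 of all 30361 transcripts and below 0 in 15393 (50.7%). These shares are the background for the gene lists below.

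Control and picloram samples with the same number and time deviated together, and a fit with this replicate block called 696 transcripts higher (2.29%) and 552 lower (1.82%), 1248 in all, with all 257 among them. Normalizing control and picloram arrays apart, and so each dye apart, gave 271 calls with all 257 among them. Subtracting the median of each array in place of quantile normalization gave 128 higher and 45 lower. Single samples decided much of the count. It was 59, 232 and 120 without control replicates 1, 2 and 3 at 30 min. Without picloram replicates 1, 2 and 3 at 30 min it was 319, 28 and 64. At 2 h it was 28, 22 and 71 without control replicates 1, 2 and 3. It was 21, 25 and 126 without picloram replicates 1, 2 and 3 at 2 h. No transcript of the 257 changed sign under any of these settings, and 19 were called whichever sample was left out.

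The responses at the 2 times were set side by side for the called transcripts. Among the 126 higher at 2 h, the median response was -0.08 at 30 min and 1.51 at 2 h, and in 106 the response at 30 min lay within 0.5 of 0. Among the 131 lower at 2 h, the medians were 0.03 and -1.39, and 115 lay within 0.5 of 0 at 30 min. Over all 30361 transcripts this held for 26739, a like share. The picloram samples moved more between the times than the control samples in 103 of the 126 and 111 of the 131, and in 16469 of all transcripts. The control samples moved opposite to the time difference in 107 of the 126, with a median change of -0.49, and in 118 of the 131, with a median change of 0.37. Over all transcripts they did so in 21169. Both changes enter the time difference by which these transcripts were chosen, so the counts are a description without a test. The change of the control was itself called in 9 of the 126, 6 of the 131 and 108 of all transcripts. That of the picloram samples was called in 108, 116 and 1783. In all 257 the 3 same-numbered differences at 2 h lay on 1 side of the 3 at 30 min. The calls were made from these same values, so nothing is read from this beside the 29.2% of all transcripts for which it held.

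**Figure D1:**
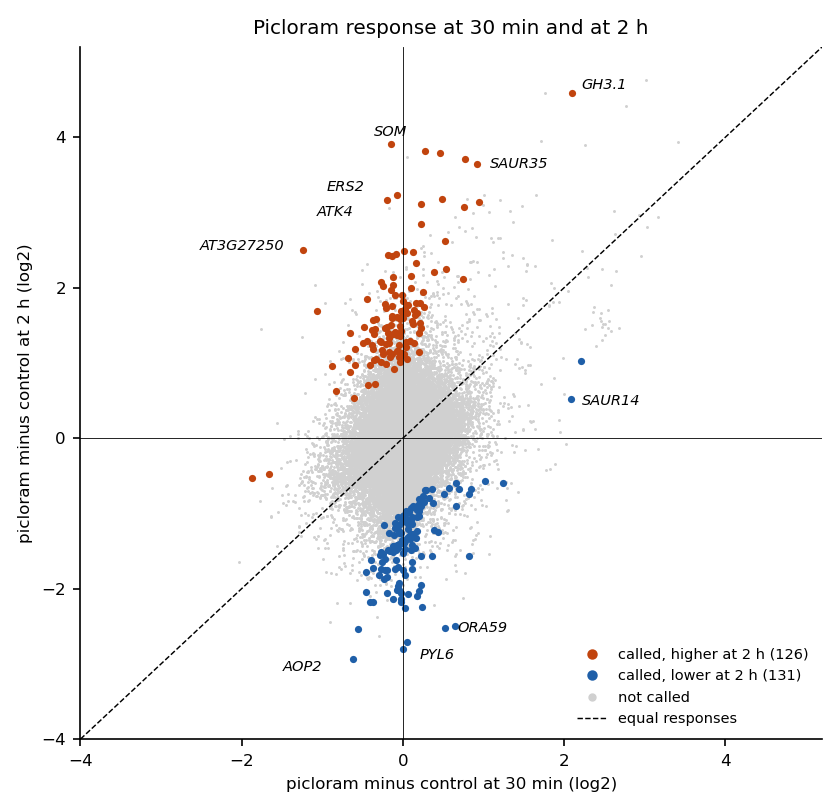
Response to picloram (picloram minus control, log2) at 30 min on the x axis and at 2 h on the y axis for each of the 30361 transcripts. The 126 transcripts called higher at 2 h (orange) and the 131 called lower (blue) lie mostly above and below the point where the response at 30 min is 0, and the dashed line marks equal responses.

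The largest time difference was that of *SOM* (AT1G03790), which encodes a CCCH zinc-finger protein known as a repressor of light-dependent seed germination. Its level was 9.84, 9.78 and 8.82 in the controls at 30 min, 9.65, 8.93 and 9.41 with picloram at 30 min, 9.77, 9.69 and 9.56 in the controls at 2 h, and 13.56, 13.62 and 13.55 with picloram at 2 h. The picloram samples at 2 h stood far above the other 9 samples, which overlapped one another. The time difference was 4.06 (SE 0.38, adjusted p = 0.00714), a 16.6-fold change.

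*ATK4* (AT5G27000), a kinesin, differed in that its controls moved as well. They went from 11.45, 11.11 and 11.96 at 30 min to 10.34, 9.98 and 10.59 at 2 h, a change of -1.20, whereas the picloram samples went from 11.35, 11.14 and 11.45 to 13.77, 13.50 and 13.15. The groups overlapped at 30 min and were fully apart at 2 h, and the time difference was 3.36 (SE 0.35, adjusted p = 0.00714). For the ethylene receptor gene *ERS2* (AT1G04310), the level with picloram was 11.01, 10.47 and 11.16 at 30 min and 13.82, 14.01 and 13.60 at 2 h, against 11.53, 10.75 and 10.57 and then 10.57, 10.73 and 10.46 in the controls. This gave a time difference of 3.30 (SE 0.37, adjusted p = 0.00844), with the control nearly level.

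The other transcripts among the 12 with the largest positive time differences varied in the course of their controls and in the response at 30 min. AT1G23070 had a response of 0.46 at 30 min and of 3.79 at 2 h, with levels of 11.48, 11.79 and 11.62 with picloram at 2 h and none above 8.43 in the other samples. The cytochrome P450 gene *CYP78A10* (AT1G74110) had controls that changed by 2.15 between the times and picloram samples that changed by 5.09. *CLC3* (AT3G51890), which encodes a clathrin light chain of coated vesicles, had a time difference of 2.63 (SE 0.42, adjusted p = 0.0277). AT3G27250 and AT3G42628 had responses below 0 at 30 min, of -1.23 and -1.06, and above 0 at 2 h, of 2.50 and 1.69. The time differences of AT3G49980 and AT1G34110 were 3.54 and 2.70.

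On the other side stood *ORA59* (AT1G06160), an ERF transcription factor gene of the jasmonate and ethylene defence response. Its controls moved from 10.64, 10.65 and 9.76 at 30 min to 11.96, 11.73 and 11.15 at 2 h, while the picloram samples moved from 10.75, 11.13 and 10.74 to 9.24, 9.12 and 8.91. At 30 min the picloram samples lay just above the controls, at 2 h well below them, and the time difference was -3.05 (SE 0.39, adjusted p = 0.0111). *APT4* (AT4G12440), an adenine phosphoribosyltransferase gene of purine salvage, behaved likewise, with a change of 1.17 in the controls and of -1.09 with picloram and a time difference of -2.27 (SE 0.28, adjusted p = 0.00898).

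The remaining transcripts with large negative time differences were low in the picloram samples at 2 h. *TINY* (AT5G25810), an AP2/ERF factor gene, had levels of 9.84, 9.93 and 10.32 there, and between 11.16 and 12.90 in the other 9 samples. Its time difference of -2.80 (SE 0.56) had an adjusted p of 0.048, close to the threshold. *AOP2* (AT4G03060) had a time difference of -2.32 (SE 0.38, adjusted p = 0.0277), and the purple acid phosphatase gene *PAP8* (AT2G01890) one of -2.18 (SE 0.40, adjusted p = 0.0382). AT3G01260 had the most negative value of this group, -3.14 (SE 0.57, adjusted p = 0.0364), and in it the controls changed by 2.18. The values of AT1G47400, AT4G21870, AT1G72416, AT3G29680 and AT4G10600 ran from -2.48 to -2.16.

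**Figure D2:**
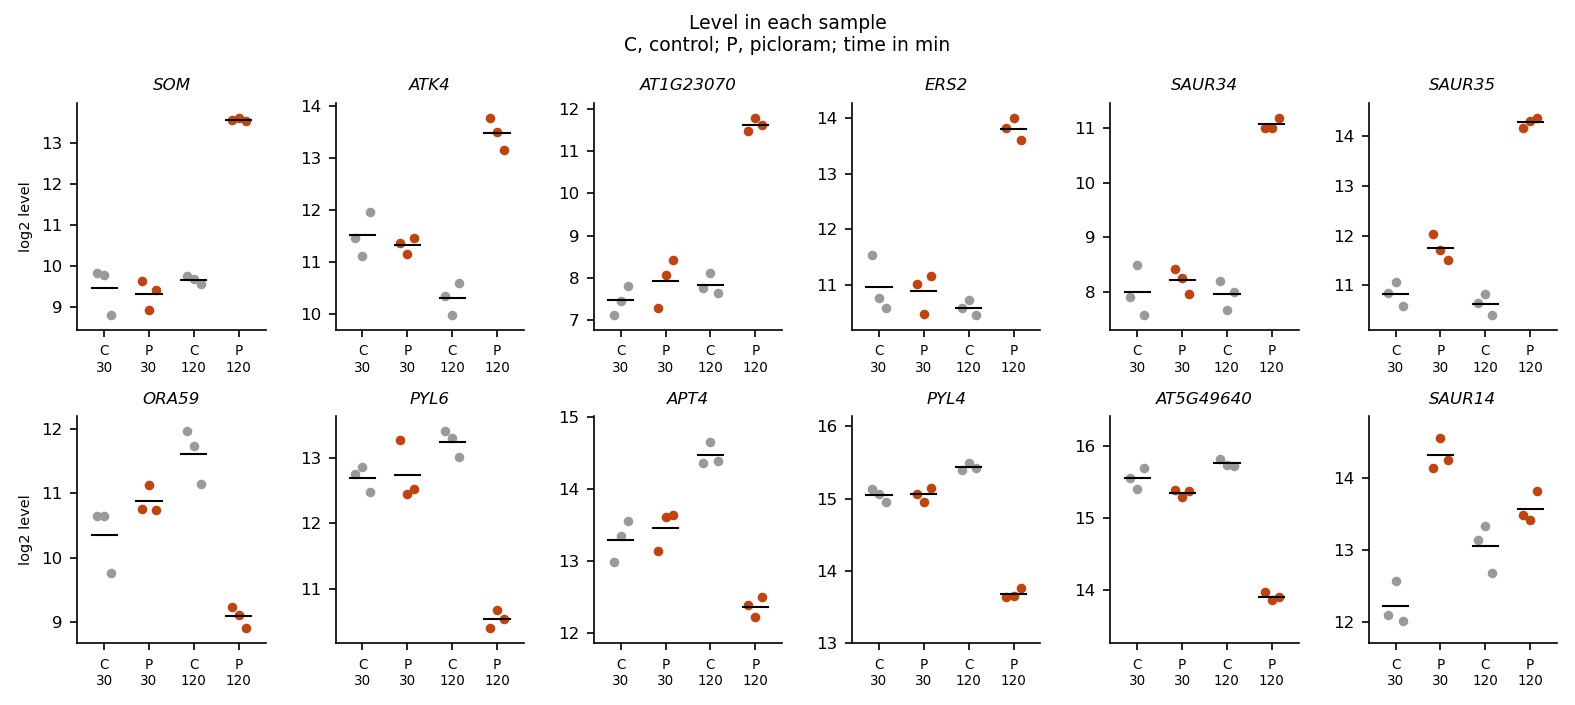
Log2 level of 12 transcripts in each of the 12 samples of experiment “a” (gray, control; orange, picloram; bars, group means), by time in min on the x axis. In the upper row and in *ORA59*, *PYL6*, *APT4*, *PYL4* and AT5G49640 the picloram samples at 2 h stand apart from the other 9, whereas in *SAUR14* the picloram samples at 30 min are the highest.

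The call of single transcripts depended on which samples were kept. Of the 24 with the largest time differences, *SOM*, *ATK4*, AT1G23070, *ERS2*, *SAUR34*, AT3G42628, *SAUR35*, *ORA59*, *PYL6* and *APT4* were called whichever of the 12 samples was left out. Among the 30 min samples, leaving out control replicates 1, 2 and 3 cost 10, 0 and 7 of the 24 their call. Leaving out picloram replicates 1, 2 and 3 cost 0, 11 and 10. Among the 2 h samples, the 3 controls in order cost 13, 14 and 10, and the 3 picloram samples 13, 12 and 6. Of the 18 further called genes from the gene lists, 5 to 16 lost the call according to the sample left out. The largest losses, 16 each, came without picloram replicate 2 at 30 min, control replicates 1 and 2 at 2 h and picloram replicates 1 and 2 at 2 h.

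Across all 21 alternatives at this threshold, the 12 omissions included, 15 transcripts kept the call, 10 higher and 5 lower. They were 9 of those just named, AT3G42628 being kept in 20, with the plastid transcript ATCG00120 (2.54) and *PYL4* (-1.75), and 4 others that were named after their values were seen. These were the methionine gamma-lyase gene *MGL* (AT1G64660, 2.48), AT5G67020 (2.62), AT5G47380 (2.34) and AT5G49640 (-1.65). In *MGL*, whose enzyme breaks down methionine, the picloram samples at 2 h stood at 15.53, 15.57 and 15.33 and the controls at 13.06, 12.96 and 12.93, after 14.94, 14.17 and 14.04 against 14.38, 14.32 and 14.41 at 30 min.

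The *SAUR* family held both the earliest response and a later one. Of 78 measured *SAUR* genes, 25 were higher with picloram at 30 min and 32 at 2 h. The median time difference of the family was -0.53, against -0.01 for all transcripts, and 61 of 78 were below 0, against 50.7% of all transcripts. Only 2 were called higher and 1 lower (2 and 4 with the replicate block). The 2 called higher were *SAUR34* (AT4G22620) and *SAUR35* (AT4G12410), neither of which was among those called at 30 min. *SAUR34* had levels of 8.41, 8.25 and 7.96 with picloram at 30 min and 11.00, 11.01 and 11.19 at 2 h, and its controls lay between 7.58 and 8.48 throughout. *SAUR35* already lay above its controls at 30 min, at 12.03, 11.71 and 11.51 against 10.84, 11.06 and 10.58, and reached 14.17, 14.30 and 14.37 at 2 h against 10.65, 10.83 and 10.41. Their time differences were 2.90 (SE 0.33, adjusted p = 0.00844) and 2.73 (SE 0.27, adjusted p = 0.00714). Many *SAUR* genes are near-identical tandem copies, and their probes may share signal.

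*SAUR14* (AT4G38840) ran the other way. It stood at 12.10, 12.57 and 12.01 in the controls at 30 min and at 14.13, 14.55 and 14.25 with picloram, and at 2 h at 13.14, 13.33 and 12.68 against 13.49, 13.41 and 13.81. Picloram and control were well apart at 30 min and nearly met at 2 h. The response was 2.09 and then 0.52, and the time difference was -1.56 (SE 0.31, adjusted p = 0.048). *SAUR14* kept the call without control replicate 2 at 30 min and lost it without any other single sample. The call was also lost with array medians subtracted (adjusted p = 0.0982) and with no normalization (adjusted p = 0.118). *SAUR15* and *SAUR23*, commonly used auxin markers, had responses of 2.51 and 2.26 at 30 min and of 1.52 and 1.45 at 2 h, and their time differences of -0.99 (95% interval -1.84 to -0.14) and -0.81 (-1.72 to 0.10) were not called.

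The transcripts induced at 30 min were followed to 2 h. Since their choice used the response at 30 min, which enters the time difference, the values are a description without a test. The median response of the 47 was 2.35 at 30 min and 1.52 at 2 h, and 42 were also called higher at 2 h. For the 25 *SAUR* genes among them, the level with picloram changed by a median of -0.07 between the times while that of the control changed by 0.82, and 23 had a smaller response at 2 h. In these medians the control level was higher at 2 h and the picloram level was nearly the same. A choice by a wide gap at 30 min favors low control values at that time. How much of the control change came from this choice was not tested. In the 53 *SAUR* genes not called at 30 min, the control changed by a median of 0.17 and picloram by -0.13. For the other 22 transcripts the control changed by 0.47 and picloram by 0.18. Within the 47, *GH3.1* was called higher at 2 h and *SAUR14* and AT4G38820 (-1.19, SE 0.24, adjusted p = 0.0466) were called lower. The 16 transcripts lower at 30 min were chosen by a response that enters the time difference with a minus sign. All 16 had time differences above 0, against 14965 of all 30361 transcripts, which after this choice is no test. Among the 16, AT1G32140 (1.19) and AT2G06700 (1.34) were called. The median level of the 16 was at the 24.5th percentile of the chip.

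**Figure D3:**
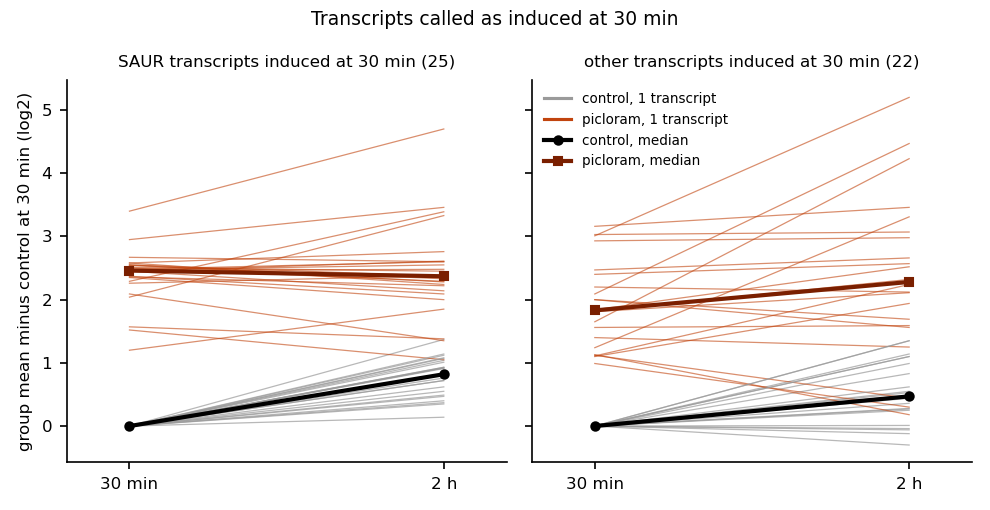
Group means of the 47 transcripts called as induced at 30 min, relative to the control at 30 min (log2), in control (gray) and picloram (orange) hypocotyls at 30 min and 2 h, with the medians in bold. In the 25 *SAUR* transcripts, which were chosen by their response at 30 min, the control median goes up by 0.82 while the picloram median changes by -0.07.

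Among the *GH3* genes 1 was called, higher at 2 h. All 10 had time differences above 0, against 14965 of all 30361 transcripts, with a median of 0.99. The median response was 0.76 at 30 min and 2.65 at 2 h. The gene called was *GH3.1* (AT2G14960), and 4 were called with the replicate block. The level of *GH3.1* was 9.80, 10.39 and 10.34 with picloram at 30 min, against 8.86, 7.63 and 7.76 in the controls, and 12.62, 12.61 and 12.46 at 2 h, against 8.43, 8.02 and 7.47. The response thus went from 2.09 to 4.59, a time difference of 2.50 (SE 0.47, adjusted p = 0.0414). *GH3.1* kept the call without control replicate 2 at 30 min and lost it without any other single sample. The other members were named after their values were seen. *GH3.6* had a time difference of 2.29 (adjusted p = 0.0586) and *GH3.5* one of 1.93 (adjusted p = 0.182). *GH3.3*, by contrast, responded by 2.62 and 3.01 at the 2 times, and its time difference of 0.40 had a 95% interval from -1.45 to 2.24.

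The *Aux/IAA* genes, which encode repressors of auxin-regulated transcription, had a median time difference of 0.03 over 29 members. None was called, and *IAA32* alone was called with the replicate block. *IAA5* responded by 3.03 and 2.81, and *IAA19* by 1.30 and 1.79, with 95% intervals of the time difference of -1.71 to 1.27 and -0.51 to 1.48. The 23 *ARF* genes had a median of 0.37 and none was called. *ARF19* and *ARF6* were called with the block. Among 5 auxin-induced *LBD* genes, transcription factors that act downstream of ARFs in root and callus formation, the median was 1.34. None was called, but *LBD17*, *LBD18* and *LBD29* were with the replicate block (named after their values were seen). The 6 receptor genes *TIR1* and *AFB1* to *AFB5* had a median of 0.19 and none was called.

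Of the auxin transport genes, 2 were called higher at 2 h. Of 19 genes listed for the efflux and influx carriers, the ABCB transporters and their regulators, 17 had time differences above 0 (median 0.77). Over all transcripts 14965 of 30361 did. The list entry *PBP1* was AT3G16420 (-0.53), a different locus from that of the auxin transport gene *PINOID-BINDING PROTEIN1*, which the list did not hold. AT3G16420 is counted in the 19 and in the median, and these were not computed without it. The 2 called were *PIN3* and *PIN4*, which encode efflux carriers. *PIN3* (AT1G70940) stood at 12.85, 12.67 and 12.60 with picloram and 12.60, 12.13 and 12.21 in the control at 30 min, and at 13.90, 14.21 and 14.12 against 12.02, 11.59 and 12.01 at 2 h. In *PIN4* (AT2G01420) the picloram samples went from 14.52, 14.54 and 14.61 to 15.28, 15.22 and 15.02, while the control went from 14.69, 14.39 and 14.34 to 13.89, 13.83 and 13.92. The time differences were 1.82 (SE 0.26, adjusted p = 0.0176) and 1.21 (SE 0.20, adjusted p = 0.0284). With the replicate block *ABCB1* was called as well. Without picloram replicate 1 at 2 h (adjusted p = 0.0539 and 0.106), and without some other single samples, *PIN3* and *PIN4* lost the call.

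**Figure D4:**
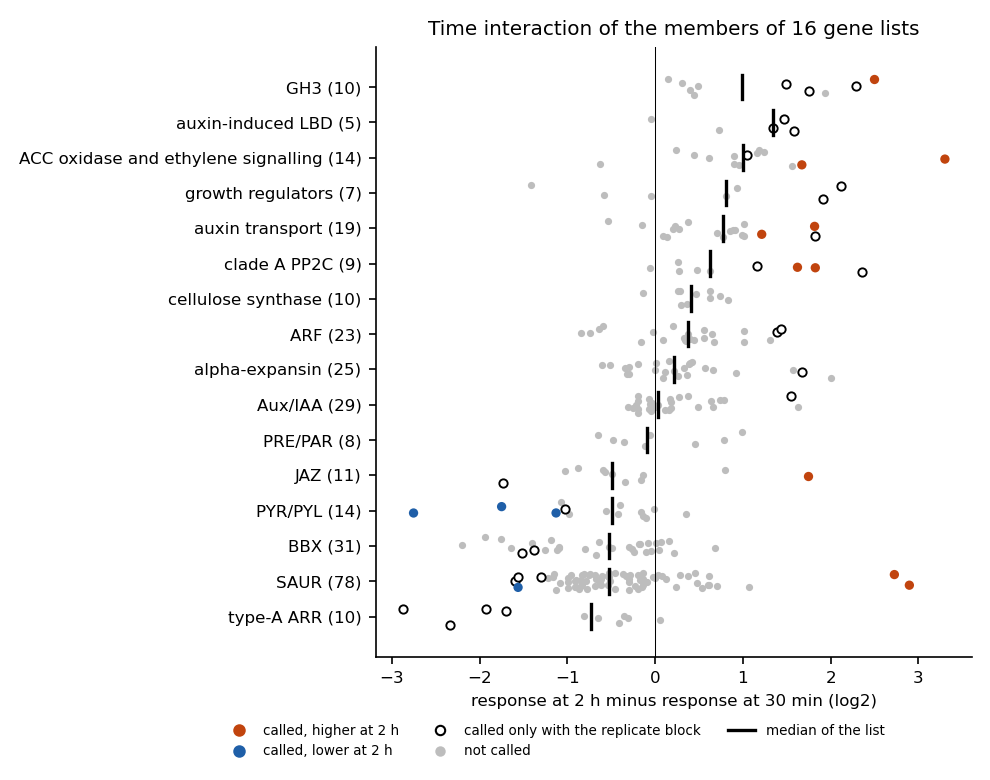
Time difference (log2, x axis) of each measured member of 16 gene lists, with the number of members beside the name. Filled points are called, open circles are called only with the replicate block, gray points are not called and the bar is the median of the list, from 1.34 for auxin-induced *LBD* genes to -0.73 for type-A *ARR* genes.

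Ethylene receptor genes were also called higher at 2 h. Of 14 genes for ACC oxidase, the enzyme that makes ethylene, and for ethylene signalling, 13 had time differences above 0, with a median of 1.00. Over all transcripts 14965 of 30361 did. *ERS1* (AT2G40940) and *ERS2*, which both encode ethylene receptors, were called, and *ETR1* was called as well with the block. In *ERS1* the response was -0.19 at 30 min and 1.48 at 2 h, as the picloram samples went from 13.93, 13.63 and 14.04 to 15.10, 14.86 and 14.97 while the controls went from 14.33, 13.98 and 13.87 to 13.37, 13.42 and 13.71. The time difference was 1.67 (SE 0.25, adjusted p = 0.0238). *CTR1*, which encodes the kinase that holds the pathway off, had a time difference of 1.16 (95% interval 0.40 to 1.93) and was not called. The 9 ACC synthase genes, which act before ACC oxidase, had a median of -0.20 and none was called. *ACS5* responded by 3.17 at 30 min and 2.93 at 2 h.

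In abscisic acid signalling, 3 receptor genes were called lower and 2 phosphatase genes higher. The PYR/PYL proteins are the receptors of abscisic acid, and with the hormone they inhibit the clade A protein phosphatases 2C, which hold the pathway off. Of 14 receptor genes, 13 had time differences below 0 (median -0.49), against 50.7% of all transcripts. Of these, 3 were called lower (4 with the block). *PYL6* (AT2G40330) had levels of 13.27, 12.45 and 12.52 with picloram at 30 min and of 10.40, 10.67 and 10.54 at 2 h, against 12.76, 12.86 and 12.48 and then 13.41, 13.30 and 13.02 in the controls, a time difference of -2.75 (SE 0.32, adjusted p = 0.00844). *PYL4* (AT2G38310) followed with -1.75 (SE 0.18, adjusted p = 0.00714). The picloram samples of *PYL4* at 2 h lay at 13.64, 13.65 and 13.76, and the other 9 between 14.96 and 15.50. *PYR1* (AT4G17870) had a time difference of -1.13 (SE 0.22, adjusted p = 0.0472). Of 9 phosphatase genes, 8 were above 0 (14965 of all 30361 transcripts), with a median of 0.62, and *ABI1* (AT4G26080) and *ABI2* (AT5G57050) were called. *ABI1* was unresponsive at 30 min, and at 2 h stood at 14.31, 14.23 and 14.43 with picloram against 12.56, 12.58 and 12.37 in the controls. The time differences were 1.82 (SE 0.27, adjusted p = 0.0196) for *ABI1* and 1.62 (SE 0.31, adjusted p = 0.0439) for *ABI2*. *PYR1* and *ABI2* lost the call whichever single sample was left out, and *ABI1* lost it without some of them. Without picloram replicate 1 at 2 h, the adjusted p was 0.141 for *PYR1*, 0.0963 for *ABI2* and 0.0784 for *ABI1*.

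Type-A *ARR* genes, feedback inhibitors of cytokinin signalling that cytokinin itself induces, had the lowest median of the lists, -0.73. Of the 10, 9 were below 0, against 50.7% of all transcripts. None of the 10 was called, and 4 were called with the replicate block. These were *ARR7* (-2.87, adjusted p = 0.0526), *ARR6* (-2.34), *ARR15* (-1.92) and *ARR5* (-1.71), named after their values were seen. In *ARR6*, the picloram samples at 2 h lay at 8.62, 8.02 and 9.17, below the 9 others, which lay between 10.81 and 12.24. In *ARR5* they lay at 11.50, 11.34 and 11.84 and the 9 others between 12.92 and 13.87.

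Of 11 *JAZ* genes, which encode repressors of jasmonate signalling, 9 were below 0, against 50.7% of all transcripts, with a median of -0.49. *JAZ3* (AT3G17860) was called, in the other direction, and with the replicate block *JAZ7* (-1.74) was called lower as well. The response of *JAZ3* was -0.36 at 30 min and 1.39 at 2 h, with picloram samples at 12.79, 13.06 and 13.06 at 2 h against controls at 11.35, 11.80 and 11.62. The time difference was 1.74 (SE 0.29, adjusted p = 0.0277).

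**Figure D5:**
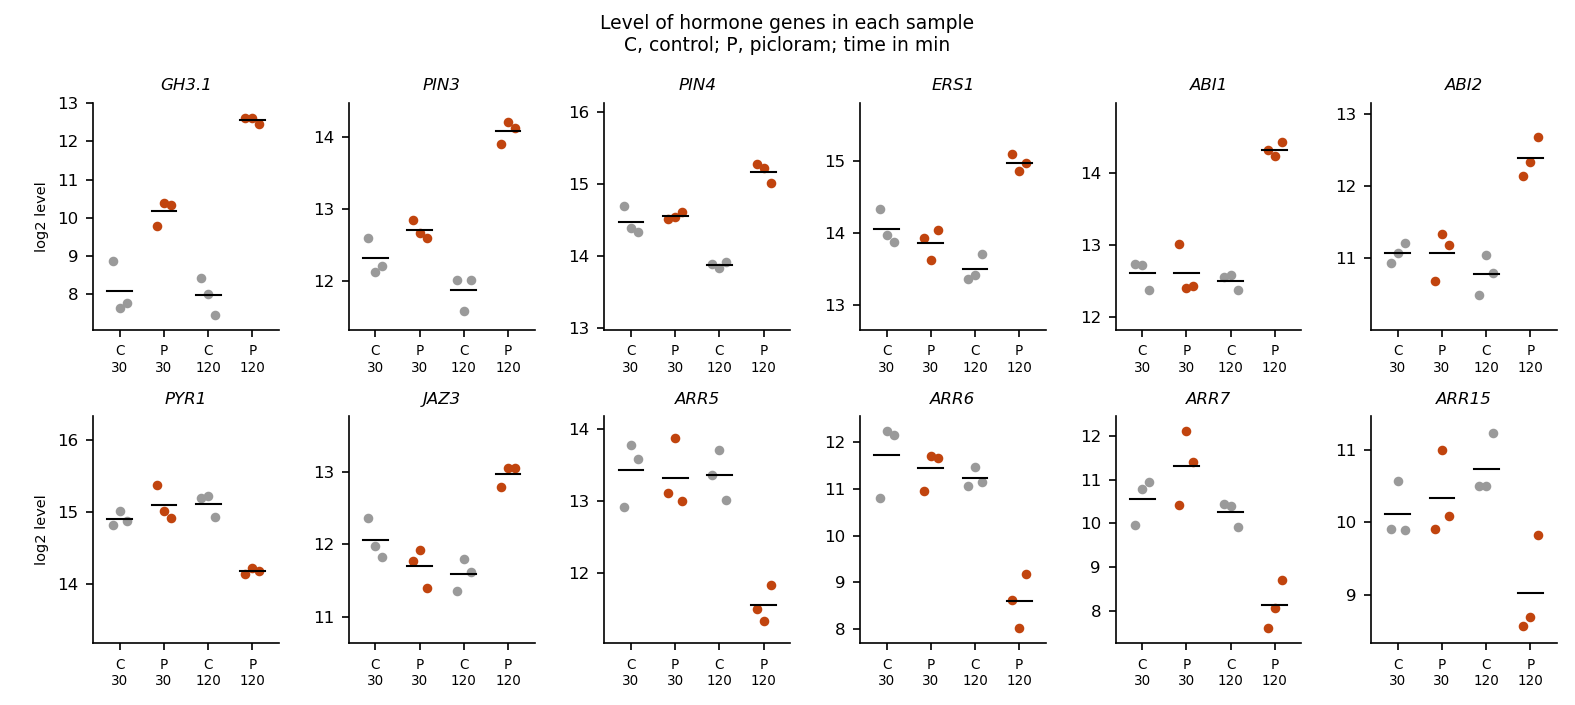
Log2 level of 12 hormone genes in each of the 12 samples (gray, control; orange, picloram; bars, group means), by time in min on the x axis. *GH3.1*, *PIN3*, *PIN4*, *ERS1*, *ABI1*, *ABI2* and *JAZ3* are highest with picloram at 2 h, and *PYR1* and the 4 *ARR* genes are lowest there.

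No gibberellin synthesis or growth regulator gene was called. The synthesis genes *GA20OX1* and *GA3OX1* responded by 2.30 and 1.84 at 30 min and by 2.14 and 2.06 at 2 h, and the 95% intervals of their time differences were -1.45 to 1.14 and -0.68 to 1.12. The 9 synthesis genes had a median time difference of 0.08 and the 7 growth regulator genes one of 0.81. *LNG1* and *LNG2*, which promote lengthwise cell expansion, had time differences of 2.12 and 1.91 and were called with the replicate block. *ARGOS*, which promotes organ growth, had one of -0.05 (95% interval -1.12 to 1.03).

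Of 4 cell wall lists, 1 gene was called. The 33 *XTH* genes, whose enzymes cut and rejoin xyloglucan, had a median time difference of 0.03 and the 25 alpha-expansin genes, whose proteins loosen the wall, one of 0.21, with 10 cellulose synthase genes at 0.41 and 9 other expansin genes at -0.17. None of the last 3 lists was called, and *EXPA12* (1.68) was called higher with the replicate block. *XTH9* (AT4G03210) was called lower. Its picloram samples went from 14.50, 15.07 and 14.68 at 30 min to 13.75, 13.66 and 13.90 at 2 h while the controls went from 14.46, 14.46 and 14.04 to 14.99, 15.05 and 15.00, a time difference of -1.67 (SE 0.26, adjusted p = 0.025). None of 22 aquaporin genes or 11 proton pump genes was called, with medians of 0.04 and 0.23.

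Among markers of cell types none was called. The 21 light-harvesting genes had a median time difference of -0.26, with 19 below 0 (50.7% over all transcripts) and 1 called with the block. Their summed intensity was 474000 to 614000 in the controls and 596000 to 667000 with picloram at 30 min, and 556000 to 647000 and 558000 to 578000 at 2 h. The 8 root hair genes had a median of 0.73 with 7 above 0 (14965 of all 30361 transcripts). They summed to 1040 to 2130 and 1820 to 2640 at 30 min, and to 2150 to 4650 and 3320 to 14500 at 2 h. The 8 shoot apex genes had a median of -0.28, with *CUC3* (-1.57) called lower with the block, and the 7 xylem genes one of 0.36. Their part in the results above was not tested.

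Experiment “b” gave a 2 h response in samples that the time difference had not used, from wild type and from the receptor mutant *afb5-5*, with 3 replicates per group, a single dye and RNA that was not amplified. It holds no 30 min samples. Of 30197 loci on both chips, its wild type called 521 higher (1.73%) and 145 lower (0.480%). Over these loci, the wild-type response was above 0 in 13980 and below 0 in 16212. Of the 126 transcripts higher at 2 h in the time difference, 125 were on that chip, 106 of them above 0, 29 called higher and 0 lower, with a median response of 0.37 in wild type and 0.08 in *afb5-5*. Of the 131 lower at 2 h, 97 were below 0, 6 were called lower and 3 higher, with medians of -0.21 and -0.08.

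By gene, *ERS2* responded by 1.25 (SE 0.21, adjusted p = 0.00771) in experiment “b”, *ATK4* by 1.30 (SE 0.17, adjusted p = 0.00223), *SAUR34* by 1.35 (SE 0.24, adjusted p = 0.0113), *SAUR35* by 2.00 (SE 0.20, adjusted p = 0.000432), *GH3.1* by 2.62 (SE 0.23, adjusted p = 0.000155) and *JAZ3* by 1.30 (adjusted p = 0.0247). *PYL6* fell by 0.84 (SE 0.18, adjusted p = 0.036). *SOM*, which led the list above, responded by 0.56 (SE 0.34, adjusted p = 0.464), and AT1G23070 by -0.08 (SE 0.27, adjusted p = 0.915). *ORA59* responded by -0.86 (SE 0.33, adjusted p = 0.274), *ABI1* by 0.17 and *PYL4* by -0.18, none of them called. The 14 PYR/PYL genes had a median response of -0.21 in wild type and 0.02 in *afb5-5*. The 9 clade A phosphatase genes had one of -0.10 in both. The early *SAUR* genes had a median of 0.85 in wild type and 0.00 in *afb5-5*.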

How the data were processed

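RNA of 12 hypocotyl pools was amplified, labelled and hybridized to NimbleGen 4-plex chips in 2 colors. The authors deposited 1 intensity per transcript and sample, annotated by TAIR8. RMA in oligo is named for them, but array medians differed 1.72-fold, so here log2 values of the deposited intensities were quantile normalized. A single linear model over the 12 samples, with no covariates, was fitted in limma 3.58.1 (R 4.3.3) with empirical Bayes moderation and Benjamini-Hochberg adjustment over all 30361 transcripts at a false discovery rate of 0.05. Replicates are biological pools, and their number limits the precision. Experiment “b”, of which the deposited intensities were log2 transformed, was fitted separately. Tables used Python 3.11.15. Methods were tested on simulated data with independent noise in each sample. Such data hold no shared deviations of same-numbered samples, so they cannot decide between the fits with and without the replicate block.

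Same-numbered control and picloram samples of a time deviated together (correlation of deviations 0.336 to 0.598), whereas those of different times did not (-0.238 to 0.0154). The number was therefore used as a block within each time, as an alternative. Members and lists were chosen with earlier results of these data known. Named genes were the 12 largest time differences per direction among called transcripts whose same-numbered differences did not overlap, up to 4 called members of each list, with all 7 of the plastid list as an exception, and genes the study names. All others were named after their values were seen. One gene with a shared symbol was removed from the *SAUR* list, and the plastid list was added, after values were seen. Gene symbols came from RefSeq, which held 29976 of the 30361 loci. Alternatives were other normalizations, a filter on dim transcripts, blocks, variance models, array weights and the omission of each sample.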

Additional observations from a re-analysis of the deposited data

Results flagged for a closer look

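The picloram response differed between the times by the test of the difference itself for 257 transcripts, and this difference is given here, as log2, for those named by the rule for named genes and for the called plastid transcripts, with no explanation. Higher at 2 h were *SOM* (4.06), AT3G27250 (3.74), AT3G49980 (3.54), *ATK4* (3.36), AT1G23070 (3.33), *ERS2* (3.30), *CYP78A10* (2.94), *SAUR34* (2.90), AT3G42628 (2.75), *SAUR35* (2.73), AT1G34110 (2.70), *CLC3* (2.63), ATCG00120 (2.54), *GH3.1* (2.50), ATCG00130 (1.91), *PIN3* (1.82), *ABI1* (1.82), *JAZ3* (1.74), *ERS1* (1.67), *ABI2* (1.62), ATCG00520 (1.55), ATCG01010 (1.39), *PIN4* (1.21) and ATCG00680 (1.15). Lower at 2 h were AT3G01260 (-3.14), *ORA59* (-3.05), *TINY* (-2.80), *PYL6* (-2.75), AT1G47400 (-2.48), AT4G21870 (-2.38), *AOP2* (-2.32), AT1G72416 (-2.28), *APT4* (-2.27), AT3G29680 (-2.24), *PAP8* (-2.18), AT4G10600 (-2.16), *PYL4* (-1.75), *XTH9* (-1.67), *SAUR14* (-1.56), *PYR1* (-1.13), ATCG00440 (-1.08) and ATCG00220 (-1.07). Groups of 3 samples are too small for a search for outlying samples.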

How the results depend on the processing

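The 257 calls (126 higher at 2 h, 131 lower) depended on the processing, and no called transcript changed direction under the alternatives run. With no normalization 26 were called (15 higher, 11 lower), and with array medians subtracted 45 were lower. Leaving out the dimmest 25% of transcripts gave 550 (257 and 293), a variance trend with robust moderation 1156 (579 and 577), array weights 755 (363 and 392), and a false discovery rate of 0.01 gave 16 (11 and 5). A replicate block within each time gave 1248 (696 and 552), and 1 block over both times 98 (64 and 34). With settings chosen after seeing the data, the block within times gave 1305 (792 and 513) after subtracting medians and 388 (241 and 147) without normalization. Leaving out 1 sample gave 21 to 319 in all, 13 to 152 higher and 6 to 167 lower. For single named transcripts, 589 values under the alternatives kept the call and 335 lost it, and none reversed. The cause of these differences was not tested. With 3 samples per group the number of arrays limits the precision, and near the ceiling of the scanner a change may be understated.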

Other observations

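Plastid-encoded transcripts, a list added after values were seen, held 7 called members of 67 (10.4%, against 0.846% of all transcripts). Of these, 5 were higher and 2 lower at 2 h, and the median time difference of the list was 0.12. ATCG00120, an ATP synthase subunit gene, stood at 15.60, 15.87 and 15.61 with picloram at 2 h against 13.16, 12.90 and 13.68 in the controls, after 15.19, 14.62 and 14.63 against 14.86, 14.76 and 15.08 at 30 min. Its time difference of 2.54 (SE 0.32, adjusted p = 0.0111) was made up of a change of -1.65 in the controls and of 0.88 in the picloram samples. ATCG00130 (1.91), ATCG00520 (1.55), ATCG01010 (1.39) and ATCG00680 (1.15) were also higher, and ATCG00440 (-1.08) and ATCG00220 (-1.07) were lower. All of the called plastid transcripts except ATCG00120 lost the call with no normalization and without some single samples. In experiment “b”, ATCG00120 responded by 0.13 (adjusted p = 0.806).

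The *BBX* genes, which encode light-signalling factors, had a median of -0.53. Of the 31, 25 were below 0, against 50.7% of all transcripts, and none was called (2 with the replicate block). The D-type cyclin genes, which promote entry into the cell cycle, had a median of -0.32. Of the 10, 8 were below 0, against 50.7% of all transcripts, and none was called. Of 14 clock genes none was called, and *PRR5* and *TOC1* were called with the block. Of 72 *WRKY* genes none was called and 5 were called lower with the block.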
